A study of Mus musculus with 24 samples.

Results

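The interaction of BDNF with a BET inhibitor was examined in mouse neurons 2 h after treatment, on 12 of the 24 Affymetrix expression arrays of the series. These were all arrays whose titles carry the 2 h time point. Primary cortical neurons from mouse embryos (E18) had been cultured for 1 week, and total RNA was measured after 4 treatments. The treatments were BDNF (50 ng per ml) combined with IBET858 (1 µM), BDNF without the inhibitor, IBET858 without BDNF, both at these doses, and the solvent DMSO as the control. Each had 3 arrays at 2 h and 3 arrays at 12 h, and the 12 h arrays are used here for comparison and for the common estimate of the spread. The labels give neither the strain nor the sex of the animals, and they do not say whether replicates came from separate cultures. The p-values therefore measure the spread between these samples, which may be technical.

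BDNF is a neurotrophin that binds the receptor tyrosine kinase TrkB and signals through the MAP kinase cascade, among others, to switch on immediate early genes in neurons. BET proteins, Brd2 among them, read acetylated histones through bromodomains and help to release paused RNA polymerase II through the elongation factor P-TEFb. Inhibitors such as IBET858 occupy the bromodomains and displace BET proteins from chromatin. The comparison asks whether the effect of one agent depends on the presence of the other.

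The interaction of a gene was the difference (BDNF with IBET858 minus BDNF) minus (IBET858 minus DMSO), on log2 values. A value of 0 means that both effects add on the log2 scale, a positive value that the combination lies above that sum, and a negative value that it lies below. The number after a ± sign is the model-based standard error, and every group has n = 3 arrays. The values had been centred for each probe set, so they carry differences between arrays and no levels of transcripts. For this reason the labelled cell type could not be checked against the levels of neuronal markers, and all values per array below are log2 units relative to the mean of the 3 DMSO arrays at 2 h. In RNA from bulk cultures, fewer cells of a type and less RNA per cell cannot be told apart.

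One array stood apart within its group. Over all genes, the standard deviation around the group mean was 0.218 log2 units for DMSO replicate 1 and 0.089 to 0.143 for the other 11 arrays at 2 h. On this array, astrocyte markers such as Gja1 (0.51), Aqp4 (0.48), Aldoc (0.46) and Gfap (0.41) were high. Activity-induced and related genes such as Vgf (-1.05), Dusp1 (-0.88) and Spry2 (-0.60) were low, whereas Klf10 (0.61) and Nab2 (0.28) were high. These genes were picked after their values were seen, and what set the array apart was not tested. The DMSO mean enters the interaction and, with the opposite sign, both single effects, so results are also given without this array. The median interaction of all genes was 0.018, and it was 0.012 without DMSO replicate 1.

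At 2 h the interaction was called in 1528 of 18193 genes tested (8.4%) at an adjusted p under 0.05 in limma, with 566 genes higher (3.11%) and 962 lower (5.29%). It exceeded 1.5-fold in 225 of the higher and in 297 of the lower genes, and 4-fold in 9 higher and 3 lower genes. Without DMSO replicate 1 the count was 1399, and 1246 of the 1528 genes were still called in the same direction. Across all genes tested, the BDNF effect in the presence of IBET858 correlated with the BDNF effect without it (r = 0.65, no arrays shared between the effects), with a slope of 0.55 through the origin. These values describe genes, which are not independent replicates.

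Called genes were sorted by their 4 group means, with 1.3-fold as the least change counted as a response. In 510 genes (33.4%) the combination lay beyond both single effects and beyond their sum, here termed more-than-additive. In 132 genes (8.64%) both agents moved the gene the same way and the combination fell short of their sum, termed buffering. In 557 genes (36.5%) of neither kind the interaction opposed a single effect past 1.3-fold, termed blocking. More-than-additive was checked first, so it also holds genes in which a single effect was lost or turned. In the remaining 329 genes (21.5%) no group mean lay past 1.3-fold from DMSO. The sorting uses the same values as the interaction, so the class sizes and the positions of the arrays within a class are descriptions. The smallest interaction among the called genes was 1.15-fold.

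**Figure D1:**
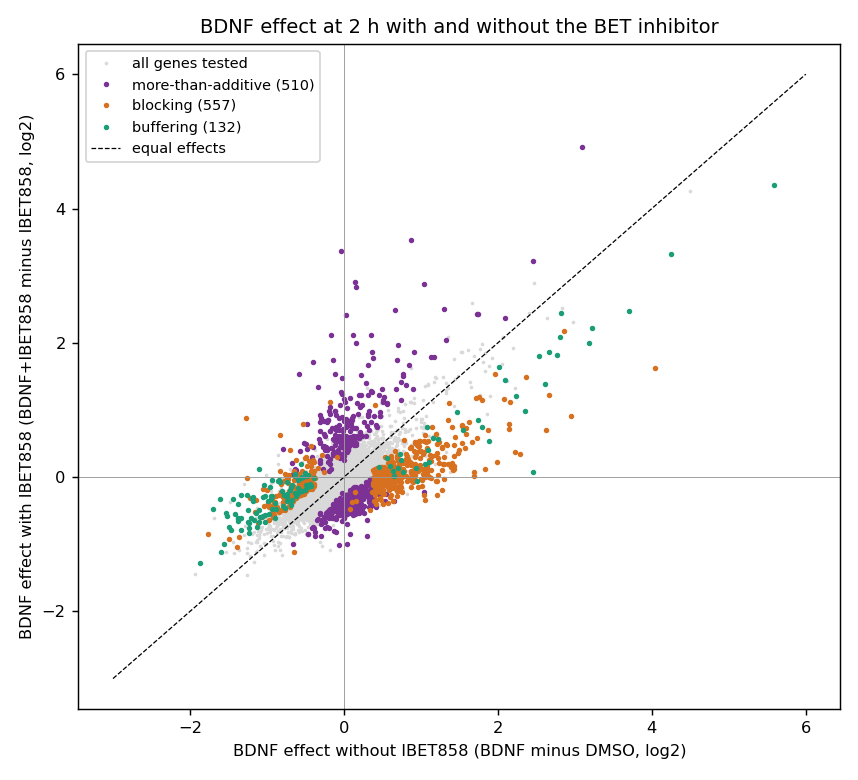
Each point is a gene, placed by its BDNF effect at 2 h without IBET858 (x axis, log2) and with IBET858 (y axis, log2), with the 510 more-than-additive, 557 blocking and 132 buffering genes in colour and all other genes tested in grey. Points on the dashed line have equal effects. The blocking genes with a BDNF rise lie to the right near the horizontal axis. Many more-than-additive genes lie above or below the line close to the vertical axis, and others, such as Ccsap and Caprin2, lie to the right of that axis.

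The more-than-additive genes included 222 that were higher with the combination. Their median was 1.12 with BDNF and IBET858, 0.023 with BDNF and 0.33 with IBET858, each relative to DMSO. Neither agent alone passed 1.3-fold in 98 of them, and IBET858 alone did so in 72. The BDNF effect turned its sign with IBET858 present in 104. All 3 combination arrays lay above the other 9 arrays in 216 of the 222, against 7.59% of all genes, a position that the sorting favours. Of the 222, 203 were still called without DMSO replicate 1.

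Pecam1, which encodes the adhesion molecule CD31 of endothelial cells and leukocytes, had the largest interaction of this class. It read 3.58, 3.72 and 3.51 in the BDNF with IBET858 arrays, -0.20, 0.087 and 0.0081 in the BDNF arrays, 0.27, 0.33 and 0.099 in the IBET858 arrays and 0.12, 0.083 and -0.20 in the DMSO arrays. The combination arrays stood alone at the top, and the BDNF and IBET858 arrays each overlapped with the DMSO arrays. The interaction was 3.41 ± 0.17 (adjusted p = 3.08e-11), and the combination was 12.1-fold above DMSO.

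Rcc1, the nucleotide exchange factor of the GTPase Ran, read 3.76, 3.85 and 3.94 with the combination, 0.054, 0.20 and 0.16 with BDNF, 0.93, 0.94 and 0.98 with IBET858 and -0.18, 0.13 and 0.053 with DMSO. BDNF arrays overlapped with DMSO arrays, IBET858 arrays formed a separate step, and the combination lay far above it. Its interaction was 2.76 ± 0.10 (adjusted p = 2.63e-13), with the combination 14.4-fold above DMSO.

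Caprin2, an RNA-binding protein also known in Wnt signalling, read 4.48, 4.45 and 4.70 with the combination, 0.96, 0.79 and 0.86 with BDNF, 1.08, 0.93 and 1.03 with IBET858 and 0.19, -0.18 and -0.014 with DMSO. Here both agents alone raised the gene by similar amounts, and the combination (23.3-fold over DMSO) exceeded their sum by 2.66 ± 0.12 (adjusted p = 6.28e-12).

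Tmem54, a membrane protein gene, read 3.05, 2.45 and 3.31 with BDNF and IBET858, 0.19, 0.15 and 0.13 with BDNF, 0.029, 0.23 and 0.046 with IBET858 and 0.013, -0.071 and 0.058 with DMSO. The combination arrays were spread more widely than the others and still lay apart from all 9, and the interaction was 2.68 ± 0.22 (adjusted p = 3.03e-08). Adam17, the protease that sheds tumour necrosis factor from cells, read 2.55, 2.29 and 2.46 with the combination, -0.35, -0.38 and -0.48 with BDNF, 0.66, 0.66 and 0.84 with IBET858 and 0.20, -0.14 and -0.067 with DMSO. In Adam17 the BDNF arrays lay below DMSO, the IBET858 arrays above it, and the combination furthest up (interaction 2.12 ± 0.13, adjusted p = 4.13e-10).

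**Figure D2:**
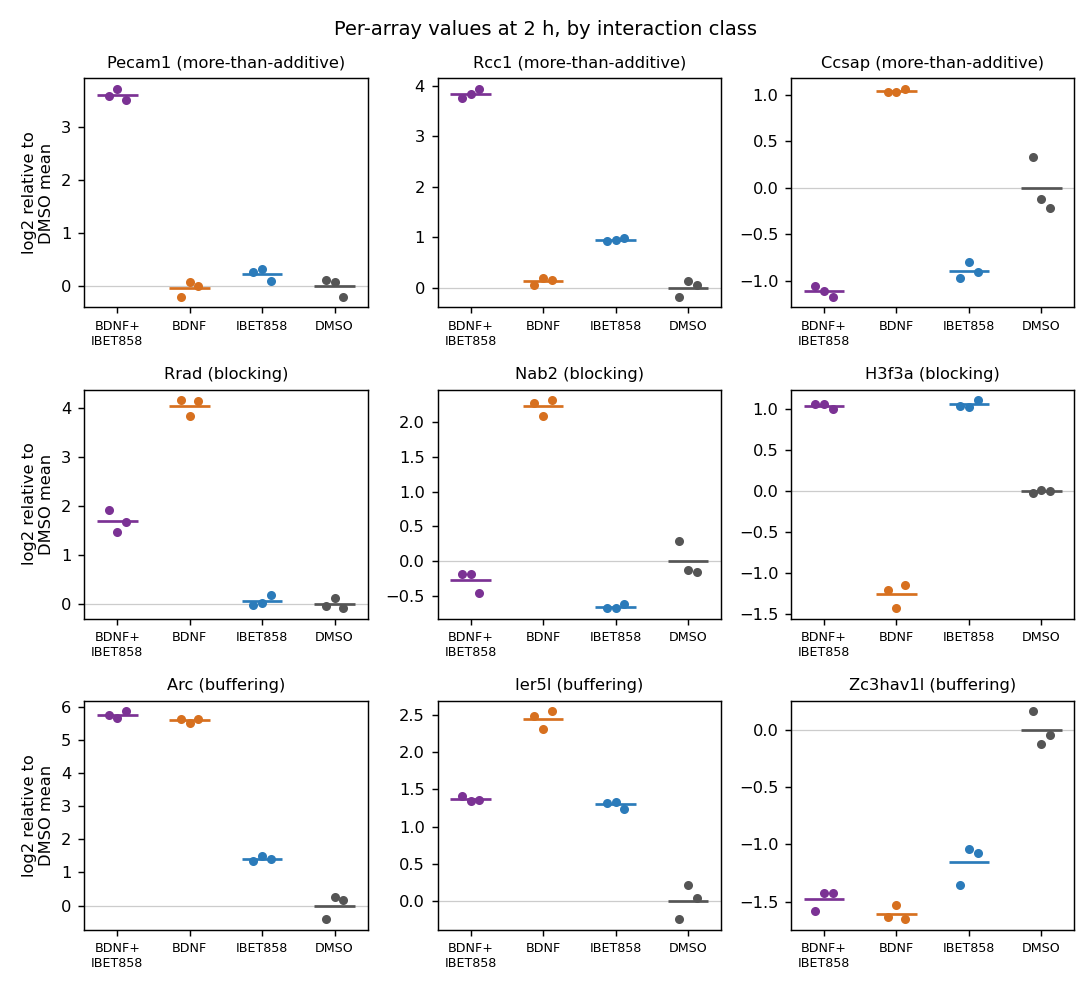
Values of 9 genes on each array at 2 h (points) with the group mean (line), in log2 units relative to the DMSO mean, for BDNF with IBET858, BDNF, IBET858 and DMSO, 3 arrays each. The combination stands apart in Pecam1 and Rcc1, the BDNF response is reduced or lost in Rrad and Nab2, and the combination of Arc is near that of BDNF alone.

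Several genes of this class were next to each other on a chromosome. In the RefSeq gene order, 28 of the 222 genes (12.6%) had an adjacent measured gene in the same class, a class that holds 1.22% of all genes tested. A neighbour on either side counted, so each class share given here lies below the share that random order would give, which was not computed. Such neighbours were not particular to it. They were found for 8 of 94 buffered falls (8.51%, of a class with 0.517% of all genes), 27 of 384 blocked BDNF rises (7.03%, of 2.12%), 4 of 159 blocked BDNF falls (2.52%, of 0.874%), 6 of 286 more-than-additive lower genes (2.10%, of 1.58%) and 0 of 38 buffered rises. Rcc1 on chromosome 4 lies between Trnau1ap (interaction 0.75) and Snhg3 (0.72), all 3 on the minus strand. Tmem54 adjoins Rnf19b (0.99), both on the plus strand of chromosome 4, and Caprin2 adjoins Ipo8 (1.68), both on the minus strand of chromosome 6. Polg2 (2.11) and Ddx5 (0.46) are neighbours on chromosome 11 beyond Milr1 (-0.18, not called), which adjoins Pecam1. The neighbours were chosen after their values were seen. Some adjacent pairs, such as Hspa1a with Hspa1b and H3c4 with H3c7, are near-identical copies whose probe sets can read one another.

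Another 288 more-than-additive genes were lower with the combination. Their median was -0.69 with BDNF and IBET858, 0.063 with BDNF and -0.29 with IBET858. The single effects pointed in opposite directions in 191 of these genes, and neither passed 1.3-fold in 182. All 3 combination arrays lay below the other 9 in 278 genes, against 10.9% of all genes. The BDNF arrays lay above the other 9 in 112 genes, against 6.83% of all genes. In 187 genes the BDNF effect turned its sign with IBET858 present. Of the 288, 241 were still called without DMSO replicate 1.

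Ccsap, which encodes a protein of centrioles, cilia and the spindle, read -1.06, -1.12 and -1.18 in the combination arrays, 1.03, 1.03 and 1.07 in the BDNF arrays, -0.97, -0.80 and -0.90 in the IBET858 arrays and 0.33, -0.12 and -0.21 in the DMSO arrays. BDNF alone raised it, whereas with IBET858 present BDNF gave -0.22 (adjusted p = 0.109), and the interaction was -1.27 ± 0.14 (adjusted p = 1.79e-06). Zfp667, a zinc finger gene, read -1.76, -2.07 and -1.85 with the combination, -0.056, -0.072 and -0.058 with BDNF, -0.79, -0.84 and -1.02 with IBET858 and -0.11, 0.096 and 0.017 with DMSO. BDNF alone was within the spread of DMSO, and the combination lay below IBET858 in every array (interaction -0.95 ± 0.16, adjusted p = 0.000454). The other genes with the largest interactions were Chst15, a chondroitin sulfate sulfotransferase (-1.18 ± 0.25), Garre1 (-1.01 ± 0.13) and the transcription factor Sp8 (-0.94 ± 0.18). DMSO replicate 1 was the lowest DMSO array in Chst15 and in Sp8.

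The promoters of the genes named by class were searched on both strands for the CRE (TGACGTCA), the AP-1 site (TGANTCA), the CArG box by its name, and TATAAA, motifs of activity-regulated and of TATA-type promoters. RefSeq promoters (GRCm38.p6, 250 bases before to 50 after the gene start) were at hand for 29 of 39 genes. The CRE was found in 0, the AP-1 site in 1, the CArG box in 1 and TATAAA in 5 of the 29, against 1.88%, 7.93%, 1.57% and 14.2% of all 27025 promoters. Shown are 1 more-than-additive gene of each direction and 1 blocked gene, all among the promoters that hold a motif, with the motif in capitals. Of the 29, only Tmem54 held an AP-1 site and only Ccsap a CArG box, and Cxcr4 was 1 of the 5 with TATAAA. The AP-1 site of Tmem54 (chr4:129105280-129105579, plus strand) starts at position -21 from the gene start, the CArG box of Ccsap (chr8:123858826-123859125, minus strand) at -90, and in Cxcr4 (chr1:128592250-128592549, minus strand) 2 overlapping TATAAA matches, one on each strand, stand shortly before the start. A match is a description of these letters and not evidence that a factor binds.
Tmem54: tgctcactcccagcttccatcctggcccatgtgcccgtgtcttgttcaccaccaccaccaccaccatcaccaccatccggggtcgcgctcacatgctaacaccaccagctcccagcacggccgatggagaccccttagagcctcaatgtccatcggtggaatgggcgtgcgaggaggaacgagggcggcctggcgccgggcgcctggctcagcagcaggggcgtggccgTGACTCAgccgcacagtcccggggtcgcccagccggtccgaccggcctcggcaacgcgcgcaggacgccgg
Ccsap: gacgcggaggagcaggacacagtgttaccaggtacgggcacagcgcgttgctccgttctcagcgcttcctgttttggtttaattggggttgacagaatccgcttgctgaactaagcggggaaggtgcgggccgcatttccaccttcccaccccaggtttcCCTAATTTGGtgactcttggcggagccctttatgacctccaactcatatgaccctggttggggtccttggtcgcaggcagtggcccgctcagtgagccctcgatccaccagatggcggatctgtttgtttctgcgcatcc
Cxcr4: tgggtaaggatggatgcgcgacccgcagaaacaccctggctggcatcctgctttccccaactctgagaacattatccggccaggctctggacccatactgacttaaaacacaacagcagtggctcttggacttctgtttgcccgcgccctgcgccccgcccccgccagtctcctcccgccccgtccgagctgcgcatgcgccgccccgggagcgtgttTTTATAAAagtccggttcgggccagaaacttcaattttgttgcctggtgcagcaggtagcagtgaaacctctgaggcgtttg

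Blocking of a BDNF rise held 385 genes. Their median BDNF effect was 0.057 with IBET858 present and 0.68 without it, and IBET858 alone gave -0.047. In 290 of the 385 the combination lay within 1.3-fold of DMSO, and in 358 the BDNF effect kept less than 50% of its size. In 141 genes it turned its sign. The BDNF arrays lay above the other 9 arrays in 373 genes, against 6.83% of all genes, a position that the sorting again favours. IBET858 alone lowered 36 of the genes past 1.3-fold, and its rises past 1.3-fold were not counted. Without DMSO replicate 1, 348 were still called.

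Rrad, a small GTPase that inhibits voltage-gated calcium channels, read 1.90, 1.47 and 1.67 with the combination, 4.16, 3.83 and 4.15 with BDNF, -0.026, 0.026 and 0.18 with IBET858 and -0.039, 0.13 and -0.088 with DMSO. IBET858 arrays overlapped with DMSO arrays, and the combination lay between these and BDNF without touching either. The rise was 3.21-fold with the combination and 16.5-fold with BDNF, and the interaction was -2.42 ± 0.15 (adjusted p = 6.37e-10).

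Cxcr4, the receptor of the chemokine CXCL12, whose promoter is shown above, read 0.30, -0.29 and 0.12 with the combination, 2.92, 2.96 and 2.97 with BDNF, -0.80, -0.89 and -0.92 with IBET858 and 0.084, -0.12 and 0.033 with DMSO. The combination arrays scattered around the DMSO arrays, while IBET858 alone lay below both. BDNF still raised the gene relative to IBET858 alone, by 0.91 ± 0.16 (adjusted p = 0.000199), and the interaction was -2.04 ± 0.23 (adjusted p = 2.66e-06).

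Nab2, a corepressor of the EGR transcription factors, read -0.18, -0.19 and -0.46 with the combination, 2.27, 2.08 and 2.31 with BDNF, -0.67, -0.67 and -0.61 with IBET858 and 0.28, -0.13 and -0.16 with DMSO. The combination arrays lay below every DMSO array and above every IBET858 array, and the interaction was -1.84 ± 0.20 (adjusted p = 1.55e-06). The small GTPase gene Rasl11a read 1.17, 0.84 and 1.07 with the combination, 2.77, 2.40 and 2.70 with BDNF, 0.39, 0.35 and 0.25 with IBET858 and 0.11, -0.074 and -0.040 with DMSO. Its 4 groups did not overlap, and the interaction was -1.92 ± 0.14 (adjusted p = 1.09e-08). Tmem74, a lysosomal membrane protein gene linked to autophagy, had an interaction of -1.95 ± 0.14 (adjusted p = 4.78e-09), and the value was -2.94 with its most variable probe set. Adcyap1, which encodes the neuropeptide PACAP, had -1.77 ± 0.46 (adjusted p = 0.0164). Without DMSO replicate 1, the lowest DMSO array of Adcyap1 at -1.37, this was -1.09, and the call was lost when only the 12 arrays at 2 h entered the fit (adjusted p = 0.0943).

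Blocking of a BDNF fall comprised 159 genes. Their median BDNF effect was -0.16 with IBET858 and -0.59 without it, and the combination lay within 1.3-fold of DMSO in 98. BDNF arrays lay below the other 9 in 119, against 6.67% of all genes, and 115 of the 159 were still called without DMSO replicate 1. Zmym1, a zinc finger gene of the MYM type, read 0.78, 0.76 and 0.38 with the combination, -1.14, -1.36 and -1.32 with BDNF, -0.25, -0.30 and -0.16 with IBET858 and 0.079, -0.022 and -0.057 with DMSO. Zmym1 was thus lowest with BDNF and highest with the combination, with no overlap between these groups and DMSO (interaction 2.15 ± 0.12, adjusted p = 1.92e-10).

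H3f3a, a gene for the replication-independent histone H3.3, read 1.06, 1.07 and 1.01 with the combination, -1.21, -1.43 and -1.15 with BDNF, 1.04, 1.03 and 1.11 with IBET858 and -0.018, 0.014 and 0.0038 with DMSO. With IBET858 present, the arrays with and without BDNF overlapped, and BDNF gave -0.014 (adjusted p = 0.928). The interaction was 1.25 ± 0.11 (adjusted p = 1.10e-07). Mettl18, a protein histidine methyltransferase (1.46 ± 0.13), Tmem168 (1.33 ± 0.12) and Meak7 (1.104 ± 0.12) completed the 5 largest of this class.

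Buffering of rises held 38 genes, among them several immediate early genes. Their median was 1.48 with the combination, 1.64 with BDNF and 0.88 with IBET858. The combination reached or passed the larger single effect in 22 of the 38, and 36 were still called without DMSO replicate 1.

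Arc, the activity-regulated synaptic protein that controls AMPA receptor trafficking, read 5.76, 5.66 and 5.87 with the combination, 5.63, 5.50 and 5.63 with BDNF, 1.34, 1.51 and 1.41 with IBET858 and -0.41, 0.26 and 0.16 with DMSO. The combination arrays lay just above the BDNF arrays, with means 54.2-fold and 48.2-fold above DMSO, and IBET858 alone was 2.67-fold above DMSO. The interaction was -1.25 ± 0.19 (adjusted p = 0.000154) and -1.04 without DMSO replicate 1. Egr1, an immediate early zinc finger factor, read 2.76, 2.66 and 2.72 with the combination, 2.59, 2.65 and 2.58 with BDNF, 1.29, 1.36 and 1.34 with IBET858 and -0.29, 0.13 and 0.17 with DMSO. The combination arrays lay just above the BDNF arrays, and both above IBET858 (interaction -1.22 ± 0.12, adjusted p = 4.83e-07).

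Ier5l, an immediate early response gene, read 1.41, 1.35 and 1.35 with the combination, 2.49, 2.31 and 2.55 with BDNF, 1.31, 1.34 and 1.24 with IBET858 and -0.25, 0.21 and 0.044 with DMSO. Its combination arrays lay just above the IBET858 arrays and well below the BDNF arrays, and BDNF gave 0.073 in the presence of IBET858 (adjusted p = 0.611). The interaction of Ier5l was -2.38 ± 0.12 (adjusted p = 3.08e-11). Sertad1, a cyclin-dependent kinase regulator (-1.36 ± 0.085), Rasl11b, a small GTPase (-1.35 ± 0.14), and the kinase gene Pim1 (-1.23 ± 0.12) were the others named by the rule.

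Buffering of falls held 94 genes with a median of -1.04 with the combination, -0.94 with BDNF and -0.61 with IBET858. In 54 of them the combination reached or passed the larger single fall, and 77 were still called without DMSO replicate 1. Zc3hav1l, a CCCH zinc finger gene, read -1.58, -1.42 and -1.42 with the combination, -1.63, -1.53 and -1.65 with BDNF, -1.35, -1.04 and -1.07 with IBET858 and 0.16, -0.12 and -0.045 with DMSO. The combination arrays overlapped with the BDNF arrays, and all treated arrays lay below DMSO (interaction 1.28 ± 0.12, adjusted p = 1.41e-07). The nuclear receptor gene Nr0b1 (1.23 ± 0.32), Ackr3, a scavenging receptor of CXCL12 (1.11 ± 0.18), Ttc30a1, of intraflagellar transport (1.07 ± 0.17), and the channel gene Trpc2 (0.99 ± 0.20) followed. For Nr0b1 the 3 DMSO arrays ranged over 0.71, -0.096 and -0.61.

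Blocking of an IBET858 effect was rare, with 7 rises and 6 falls. Ddx23, an RNA helicase of the spliceosome, read 0.50, 0.36 and 0.53 with the combination, -0.15, -0.21 and -0.20 with BDNF, -0.63, -0.61 and -0.73 with IBET858 and -0.12, 0.019 and 0.099 with DMSO. The IBET858 arrays were lowest and the combination highest, and no groups overlapped, with BDNF just below DMSO. The interaction was 1.31 ± 0.12 (adjusted p = 1.75e-07), and its probe sets differed, with 2.47 for the most variable one. Mier3, a corepressor gene (0.67 ± 0.11), and the potassium channel gene Kcnh5 (-0.82 ± 0.16) had the largest interactions of the other named falls and of the named rises. Luzp1 (-0.59 ± 0.14) and Efna3, an ephrin ligand (-0.56 ± 0.087), followed among the named blocked rises. Calls for Actl6a, Luzp1, Ly6e and H2bc21 were lost with the most variable probe set (-0.32 for H2bc21, limma adjusted p = 0.295). Those of H2bc21 and Mast1 were lost when certain single arrays were left out. The call of Mast1 was also lost when only the 12 arrays at 2 h entered the fit (adjusted p = 0.0549).

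Gene lists were counted beside the 8.4% of all genes called and the median of 0.018. Of 32 activity-induced transcription factors, 12 were lower and 0 higher, with a median of -0.27. Of these 12, 5 were buffered (Fosl1, Jun, Egr1, Ier2 and Klf4) and 7 had a blocked BDNF rise (Fosl2, Nr4a2, Klf10, Crem, Srf, Nab2 and Csrnp1). Klf10, a transcription factor of the Krüppel-like family, read 1.48, 1.36 and 1.38 with the combination, 2.66, 2.66 and 2.69 with BDNF, 0.24, 0.29 and 0.040 with IBET858 and 0.61, -0.19 and -0.41 with DMSO, an interaction of -1.45 ± 0.24 (adjusted p = 0.000275). Fos itself stood at -0.020 ± 0.10 (adjusted p = 0.945), and at 0.044 without DMSO replicate 1. Without DMSO replicate 1 the list had 13 lower and 1 higher, with a median of -0.22.

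Among 36 activity-induced effector genes, 10 were lower and 5 higher, with a median of -0.34, which was -0.21 without DMSO replicate 1. The 10 lower genes were buffered in 7 cases, such as Arc and Pim1, and blocked in 3, Rrad, Sik1 and Nrn1. Sik1, a salt-inducible kinase, had -1.20 ± 0.15 (adjusted p = 1.34e-05). The 5 higher genes were all more-than-additive, namely Homer1, a postsynaptic scaffold (0.65), Plat, tissue plasminogen activator (0.76), Plk3 (0.64), Pmaip1 (1.03) and Trib1 (0.69). Members named from any list beyond its 4 largest interactions were chosen after their values were seen. Bdnf, the gene of the ligand, gave -0.99 ± 0.37 (adjusted p = 0.117), which missed the threshold, and -0.46 without DMSO replicate 1 (adjusted p = 0.141). Its arrays read -0.17, -0.19 and -0.20 with the combination, 1.18, 1.22 and 1.15 with BDNF, -0.32, -0.58 and -0.24 with IBET858 and -1.07, 0.43 and 0.63 with DMSO, where replicate 1 was far below the other DMSO arrays.

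Of 20 feedback regulators of the MAP kinase pathway, 7 were lower and 1 higher (median -0.30). Without DMSO replicate 1 these were 8 lower and 1 higher, with a median of -0.20. Spry1, an inhibitor of receptor tyrosine kinase signalling, was the higher one and read 1.07, 1.17 and 1.20 with the combination, -0.43, -0.41 and -0.60 with BDNF, 0.36, 0.36 and 0.35 with IBET858 and -0.26, 0.12 and 0.14 with DMSO. It was lowest with BDNF and highest with the combination, with an interaction of 1.27 ± 0.11 (adjusted p = 1.08e-07). Its relative Spry2 went the other way, at -1.18 ± 0.26 (adjusted p = 0.00483) and at -0.88 without DMSO replicate 1, as did Spred2 (-1.02 ± 0.11, adjusted p = 2.13e-06). The phosphatase gene Dusp1 had -1.03 ± 0.30 (adjusted p = 0.0379), which was -0.59 without DMSO replicate 1, and its call was lost when any single array of the other 3 groups was left out.

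**Figure D3:**
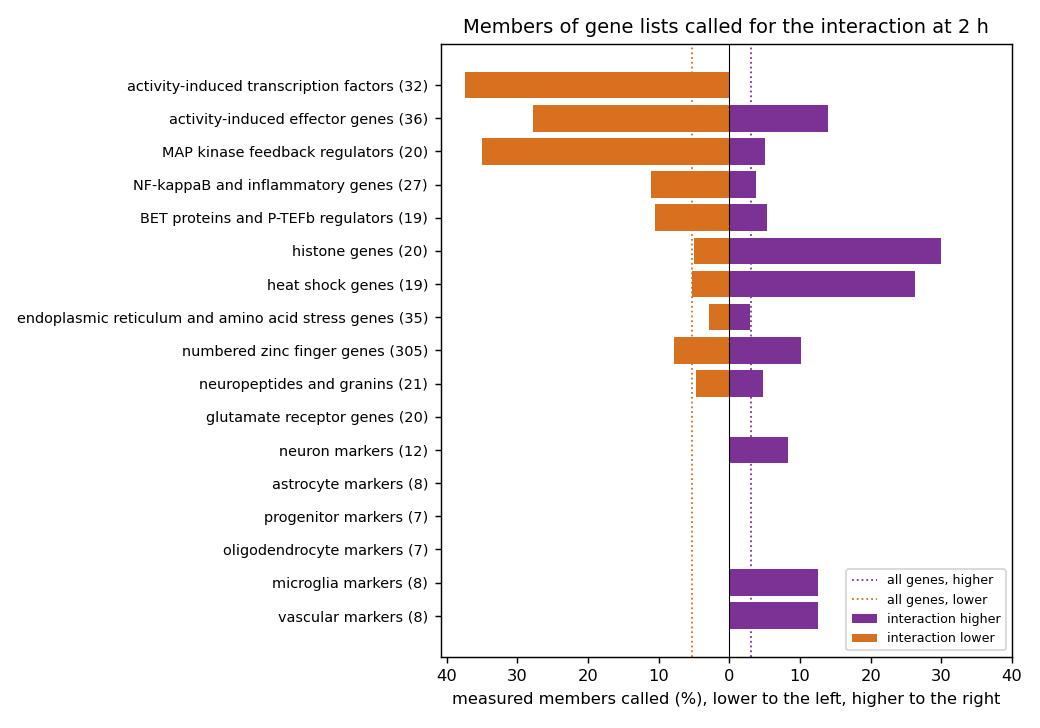
Share of the measured members of each gene list that were called for the interaction at 2 h (x axis, %), lower to the left and higher to the right, with the number measured in parentheses and dotted lines for all genes tested (3.11% higher and 5.29% lower). Activity-induced transcription factors and MAP kinase feedback regulators reach furthest to the left, and histone and heat shock genes furthest to the right.

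Histone genes pointed upward, with 6 of 20 higher and 1 lower and a median of 0.23. H2ax, the variant that marks DNA breaks when phosphorylated, read 1.78, 1.77 and 1.75 with the combination, -0.27, -0.23 and -0.15 with BDNF, 1.00, 0.91 and 0.93 with IBET858 and -0.12, 0.086 and 0.035 with DMSO. The combination lay above IBET858 in every array, and the interaction was 1.03 ± 0.080 (adjusted p = 1.64e-08). H3f3a was followed by the H3 genes H3c4 (1.00 ± 0.23) and H3c7 (0.82 ± 0.24), which are near-identical copies, and the call of H3c7 was lost when any of 8 single arrays was left out (0.64 to 0.85). The lower member was H2bc21 (-0.46 ± 0.13).

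Heat shock genes were higher in 5 of 19 and lower in 1, with a median of 0.081. Hspb8, a small heat shock protein, had 1.29 ± 0.17 (adjusted p = 2.06e-05), which was 2.38 with its most variable probe set, and the chaperone genes Hspa1b and Hspa1a had 0.93 ± 0.17 and 0.82 ± 0.13. The lower member was Dnajb5, at -0.87 ± 0.089 (adjusted p = 8.66e-07). Stress genes of the endoplasmic reticulum and of amino acid supply had 1 higher and 1 lower of 35 (median -0.048), and without DMSO replicate 1 they had 3 higher and 0 lower (median -0.014). The 2 members called were Ddit4, an inhibitor of mTORC1 signalling, at 0.45 ± 0.074 (adjusted p = 0.000312), and Cebpg, at -0.32 ± 0.094 (adjusted p = 0.0405). The call of Cebpg was lost under most omissions of 1 array, and its probe sets differed in sign (0.19, -0.51 and -0.63).

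Of 27 genes of NF-kappaB and inflammation, 3 were lower and 1 higher (median 0.014). The lower ones were the NF-kappaB subunits Rel (-1.02 ± 0.16) and Rela (-0.62 ± 0.082) and the inhibitor Nfkbie (-0.88 ± 0.14), and the higher one was the chemokine gene Cxcl1 (0.39 ± 0.11). The call of Cxcl1 was lost without DMSO replicate 1 (0.33, adjusted p = 0.0822). Of 19 BET and P-TEFb genes, 2 were lower and 1 higher (median -0.14, and -0.083 with 2 lower and 2 higher without DMSO replicate 1). Cdk9, the kinase of P-TEFb, was lower at -0.50 ± 0.084 (adjusted p = 0.000393), and so was the elongation factor gene Ell (-0.23 ± 0.070). Brd2, a BET protein, read 1.48, 1.49 and 1.48 with the combination, 0.39, 0.39 and 0.46 with BDNF, 0.72, 0.71 and 0.68 with IBET858 and -0.10, -0.0041 and 0.11 with DMSO. All 4 groups were separate, with the combination highest, followed by IBET858, BDNF and DMSO, and the interaction was 0.37 ± 0.081 (adjusted p = 0.00482), a call lost with its most variable probe set (0.25, adjusted p = 0.253). Hexim1, the inhibitor of P-TEFb, had 0.40 ± 0.14 (adjusted p = 0.094), and 0.56 without DMSO replicate 1 (adjusted p = 0.00203).

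Of 305 numbered zinc finger genes, 31 were higher and 24 lower, with a median of 0.071. Their median effect was -0.47 with the combination, -0.31 with BDNF and -0.22 with IBET858. Of the called members 21 fell under buffering of falls, such as Zfp708 (0.88 ± 0.18), and 13 were more-than-additive and lower, such as Zfp667. Zfp930 had the largest positive interaction of the list (0.98 ± 0.13), and the BDNF rise of Zfp516 was blocked (-0.86 ± 0.14). Among 21 neuropeptide and granin genes 1 was higher, Chga (0.59 ± 0.083), and 1 lower, Adcyap1, with a median of -0.17 that was -0.069 without DMSO replicate 1. Of 20 glutamate receptor genes 0 were called in limma and 3 had an unadjusted p under 0.05 (median -0.018).

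Of 12 neuron markers 1 was called (8.33%, near the 8.4% of all genes), the tubulin gene Tubb3 (0.48 ± 0.097), and the median was 0.037. There were 3 without DMSO replicate 1, with the neurofilament genes Nefl (0.57) and Nefm (0.53) called as well, and a median of 0.012. The probe sets of Nefl differed in sign (-0.14 and 0.85 in the full data). In limma 0 of 8 astrocyte, 0 of 7 progenitor and 0 of 7 oligodendrocyte markers were called, with 0, 2 and 1 at an unadjusted p under 0.05 and medians of 0.24, -0.0074 and 0.031. These medians without DMSO replicate 1 were 0.085, -0.044 and 0.020, again with 0 called. Among 8 microglia markers Itgam was called (0.68 ± 0.12; list median 0.067), and among 8 vascular markers Pecam1 was called (list median 0.052, and 0.11 without DMSO replicate 1). The next largest vascular marker was Cldn5, a tight junction gene, at 0.16 ± 0.15 (adjusted p = 0.631). The part of these cell types in the values above was not tested beyond these counts.

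The same contrast at 12 h, on arrays that the 2 h contrast does not use, was called in 2946 genes (16.2%), with 8.95% of all genes higher and 7.24% lower. Of the 222 more-than-additive higher genes, 60 were called in the same direction at 12 h and 15 in the opposite one. For the 288 more-than-additive lower genes these counts were 59 and 18, and for the 385 genes with a blocked BDNF rise 98 and 52. Among the 159 genes with a blocked BDNF fall 53 were called in the same direction and 7 in the opposite one, and the counts were 17 and 7 of the 38 buffered rises, and 17 and 4 of the 94 buffered falls. The difference between the 2 h and the 12 h interaction was called in 1573 of all genes (8.65%; 3.45% higher and 5.19% lower), and in 134, 115, 203, 38, 17 and 31 members of these classes in the same order. Members were selected by their 2 h value, which enters that difference, so these counts are descriptions.

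Single genes followed different courses. Cxcr4 had an interaction of -1.88 ± 0.23 (adjusted p = 6.58e-06) at 12 h and Rasl11a -1.75 ± 0.14 (adjusted p = 3.30e-08), close to their 2 h values. Rrad was at 1.64 ± 0.15 (adjusted p = 1.45e-07) at 12 h, opposite in sign to 2 h, with effects over DMSO of 4.23 with the combination, 2.14 with BDNF and 0.45 with IBET858. Arc (0.78 ± 0.19, adjusted p = 0.00717) and Pim1 (1.64 ± 0.12, adjusted p = 4.77e-09) likewise had a positive interaction at 12 h. For Pecam1 the value was -0.15 ± 0.17 (adjusted p = 0.618), for Rcc1 -0.24 ± 0.10 (adjusted p = 0.121) and for Caprin2 -0.035 ± 0.12 (adjusted p = 0.886).

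**Figure D4:**
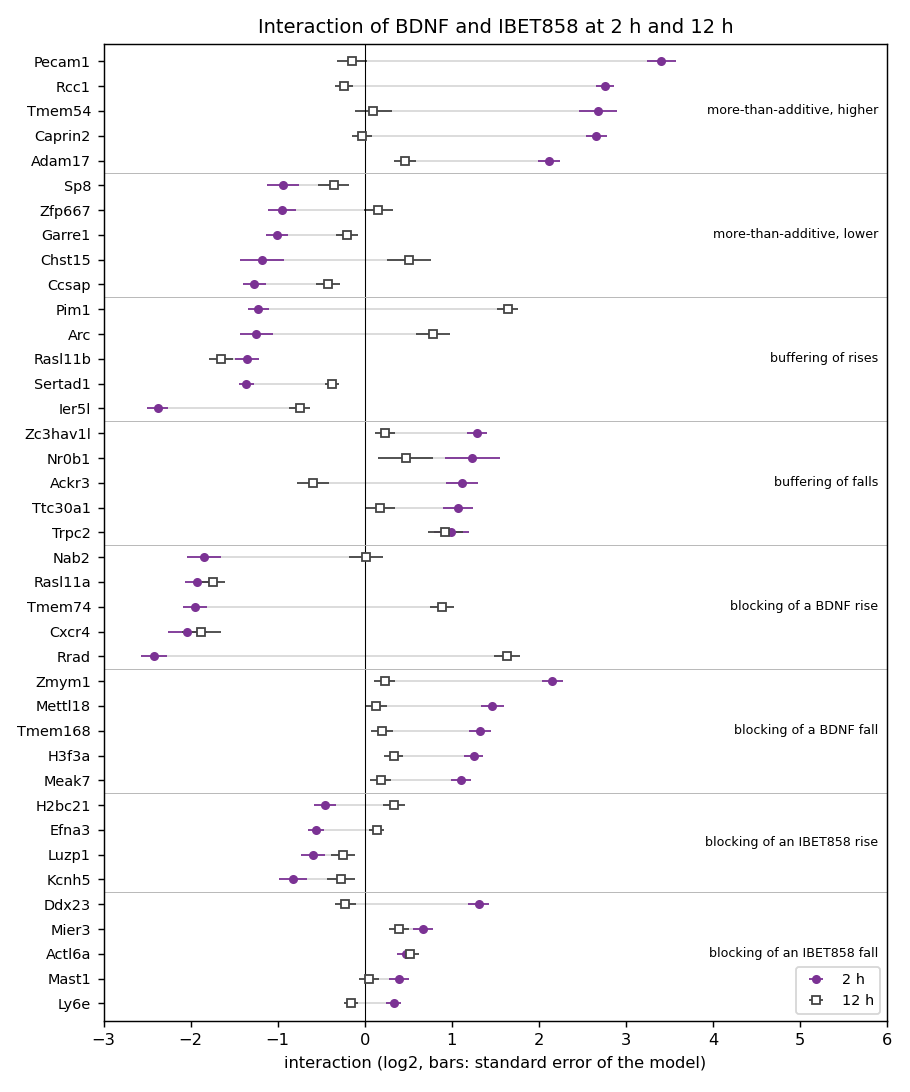
Interaction of BDNF and IBET858 (x axis, log2, bars for the standard error of the model) at 2 h (filled circles) and 12 h (open squares) for 39 genes named by class. Pecam1, Rcc1, Tmem54 and Caprin2 lie near 0 at 12 h, Rrad, Tmem74, Arc and Pim1 lie on the other side of 0, and Cxcr4, Rasl11a, Rasl11b and Trpc2 keep their side with similar values.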

How the data were processed

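RNA from mouse cortical neurons was measured on 24 Affymetrix arrays, of which the 12 at 2 h carry the interaction. Log2 values as deposited had been made by the authors with RMA, per the submitters' processing notes. RMA corrects background, brings arrays to 1 distribution and summarises probe sets in log2 units, although the log base is not stated in the sources used here. All 45101 probe sets had a median of 0 across the 24 arrays (tolerance 1e-06), so levels were removed, detection could not be judged, and a change in total mRNA would not show. The number of arrays limits the precision.

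Of all 45101 probe sets, 64 of them controls, 34958 had 1 gene symbol in the platform annotation, 932 had several and 9211 were not listed. Control probe sets were not used. Symbols were updated through Entrez IDs to RefSeq of assembly GRCm38.p6 (34754 matched, 204 did not). A gene was the mean of its probe sets, giving 18193 genes, of which 9010 combined several probe sets. Of the 39 genes named by class, 16 had several probe sets, and in all 16 these had interactions of one sign. Promoters came from RefSeq.

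A model with a mean for each of 8 groups was fitted to 24 arrays with limma 3.58.1 in R 4.3.3 (lmFit and eBayes, 16 residual degrees of freedom). Tests were two-sided and adjusted by Benjamini-Hochberg over all genes, and calls were made at 0.05. The procedure was tested on simulated data. Class rules, with a threshold of 1.3-fold, were checked in the order more-than-additive, buffering, blocking. Named genes were the 5 largest interactions per class and direction among genes still called without DMSO 2 h replicate 1 (predicted and clone names left out), the 4 largest per list, and Bdnf, Fos, Arc, Egr1, Brd2 and Hexim1. Classes, lists and genes were chosen with earlier results of these data known. Alternatives covered single arrays left out, the replicate block, array weights, array median, probe set choice, the 2 h arrays alone, the class fold and the adjusted p. For the 18 same-numbered pairs of 2 h arrays from different groups, deviations from the group means correlated at -0.141 to 0.154 (median -0.017). Of these pairs 2 lay above 0.1, both between IBET858 and BDNF with IBET858 (0.154 and 0.12).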

Additional observations from a re-analysis of the deposited data

Results flagged for a closer look

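For 28 of the 39 genes named by class, the interaction at 2 h differed from that at 12 h by limma's test of the difference itself (2 h minus 12 h, log2, adjusted p under 0.05 over all genes), which drew attention to them. Of all genes tested, 8.65% were called for this difference. The test was added after values had been seen, and the genes had been picked by their 2 h interaction, which enters the difference. Among the more-than-additive genes the difference was positive in Pecam1 (3.55), Rcc1 (2.999), Caprin2 (2.69), Tmem54 (2.58) and Adam17 (1.66), which were higher with the combination, and negative in Chst15 (-1.68), Zfp667 (-1.10), Ccsap (-0.85) and Garre1 (-0.80), which were lower. Among the buffered rises it was negative in Pim1 (-2.86), Arc (-2.03), Ier5l (-1.63) and Sertad1 (-0.99), and among the buffered falls positive in Ackr3 (1.70), Zc3hav1l (1.06) and Ttc30a1 (0.89). The blocked BDNF rises Rrad (-4.06), Tmem74 (-2.83) and Nab2 (-1.85) had negative differences, and the blocked BDNF falls Zmym1 (1.92), Mettl18 (1.34), Tmem168 (1.13), H3f3a (0.92) and Meak7 (0.92) positive ones. Of the blocked IBET858 effects, the difference was negative in H2bc21 (-0.80) and Efna3 (-0.69) and positive in Ddx23 (1.53) and Ly6e (0.49). The interaction was called at both times with opposite signs in 5 of the 39 genes, and with the same sign in 11. At 12 h it was called in 16.2% of all genes.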

How the results depend on the processing

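Among the 102 named genes, no value called in the full data or in the alternative reversed its direction. The 39 genes named by class had been required to stay called with the same sign without DMSO replicate 1. For them that setting could therefore neither lose a call nor reverse it. Leaving out each 2 h array in turn gave 1213 to 1704 called genes (442 to 642 higher, 771 to 1062 lower). The ranges were 199 to 242 for more-than-additive higher, 238 to 283 for more-than-additive lower, 32 to 66 for buffered rises, 73 to 125 for buffered falls, 331 to 435 for blocked BDNF rises, 110 to 183 for blocked BDNF falls, 7 to 23 for blocked IBET858 effects and 206 to 386 for unclassed genes. Buffered rises numbered 66 and blocked IBET858 effects 23 without DMSO replicate 3, unclassed genes 206 without BDNF replicate 1, and blocked IBET858 effects 8 without BDNF with IBET858 replicate 3 and 7 without IBET858 replicate 1. The 12 h interaction ranged over 2751 to 3595 genes. With array weights 2732 genes were called (1199 higher, 1533 lower), with 349 more-than-additive higher, 453 more-than-additive lower, 440 blocked BDNF rises, 150 buffered falls, 317 blocked BDNF falls, 30 blocked IBET858 effects and 949 unclassed. In that fit the DMSO arrays at 2 h had weights of 0.17, 4.849 and 0.973 for replicates 1, 2 and 3, so replicate 2 carried most of the DMSO mean. The most variable probe set gave 22 blocked IBET858 effects and 169 unclassed genes. A class fold of 1.1 gave 95 buffered rises, 183 buffered falls, 25 blocked IBET858 effects and 8 unclassed. A class fold of 1.5 gave 190 more-than-additive lower genes, 22 buffered rises, 48 buffered falls, 246 blocked BDNF rises and 698 unclassed. At an adjusted p under 0.01, 904 genes were called (320 higher, 584 lower). The cause of the changes was not tested, other than the threshold itself in the last 3 settings.

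With the replicate number as a block, 1495 genes were called (556 higher, 939 lower), and the block changed no call of a named gene. The labels do not say that a number marks a shared culture. One alternative was chosen after seeing the data: without DMSO 2 h replicate 1 and IBET858 12 h replicate 3, which also stood apart, 1722 genes were called (667 higher, 1055 lower), with 417 unclassed and 3549 called at 12 h. The 102 named genes, 68 of them called, were refitted under 18 settings. Of 1836 values, 1747 kept direction and side of the threshold, 47 lost the call, 24 gained it, and 18 values of 8 genes turned their sign, none of them called in either fit. With array weights the turned values were 0.033 for Fos, 0.20 for Grm2, -0.088 for Mki67 and -0.026 for Nes. Leaving out 1 array gave -0.052 to 0.044 for Fos, -0.50 to 0.25 for Grm2, -0.060 to 0.60 for Mki67 and -0.044 to 0.11 for Nes, with the turned value of each without DMSO replicate 1 (and for Nes also without IBET858 replicate 1), as with both apart arrays left out. It gave -0.0082 to 0.21 for P2ry12, turned without IBET858 replicate 2, and -0.060 to 0.34 for Vtn, turned without DMSO replicate 3. With the most variable probe set the turned values were -0.087 for Cx3cr1, -0.14 for Nefl and -0.046 for Nes. The interaction of Fosl1 was -1.39 and that of Spred2 -1.80 with the most variable probe set.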

Other observations

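A few more-than-additive genes outside the lists and the naming rule, or with a further course at 12 h, were picked after their values were seen. Serpinb2, plasminogen activator inhibitor of the second type, was 5.04 log2 units above DMSO with BDNF and IBET858, 3.09 with BDNF and 0.12 with IBET858 at 2 h, an interaction of 1.83 ± 0.25 (limma adjusted p = 3.06e-05). At 12 h Serpinb2 was at 8.04 with the combination, 3.51 with BDNF and 0.48 with IBET858, and its interaction was 4.04 ± 0.25 (adjusted p = 3.28e-10). Plat, tissue plasminogen activator, was at 4.03 with the combination, 2.46 with BDNF and 0.82 with IBET858 at 2 h, and its interaction was 0.76 ± 0.12 at 2 h and 1.55 ± 0.12 at 12 h.

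Polg2, the accessory subunit of the mitochondrial DNA polymerase, was at 2.70 with the combination, -0.58 with BDNF and 1.17 with IBET858 at 2 h. Its interaction was 2.11 ± 0.13 at 2 h and -0.73 ± 0.13 at 12 h (adjusted p = 0.000344). Epor, the erythropoietin receptor, was at 2.39 with the combination, 0.15 with BDNF and 0.39 with IBET858 at 2 h, with an interaction of 1.85 ± 0.21 at 2 h and 0.10 ± 0.21 at 12 h (adjusted p = 0.791).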
